A study of Macaca mulatta with 102 samples.

Results

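T cells of rhesus macaques that carried the label Siro.F, for sirolimus given alone after a transplant of hematopoietic cells, were compared with T cells of healthy control macaques. The members were chosen by their group label: 4 arrays of 102, 1 each from the animals R.13 and R.16 at day 12, R.17 at day 22 and R.18 at day 24 after the transplant. The 102 arrays of the series cover 66 animals in 16 groups. The healthy group, Healthy.Control, holds 46 arrays, and the 2 arrays of animal R.201 were averaged, which left 45 animals. A further group, NoRx.F, was used to show where the Siro.F arrays differ from transplant recipients whose label names no prophylaxis. It holds R.50, R.51, R.52 and R.53 at days 6, 7, 8 and 12, and R.53 also has an array in the healthy group. Per the labels' protocols, recipients of allogeneic grafts were given differing drugs against graft-versus-host disease, and CD3-positive T cells were sorted from blood by flow cytometry in all groups, healthy ones included. The labels give no dose, age or sex, do not say which animals shared a donor, and do not spell out the letter F. Of the 4 Siro.F animals, R.13, R.16 and R.18 also have a healthy array of their own among the 45, and R.17 has none. Siro.F differs from the healthy group by the transplant as well as by sirolimus, so transplant and drug cannot be told apart in this comparison.

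Sirolimus, also called rapamycin, binds the protein FKBP12, and the pair inhibits mTOR complex 1, a kinase complex that couples growth factor and amino acid signals to protein synthesis, metabolism and cell growth. In T cells mTOR complex 1 is activated by the antigen receptor, by costimulation and by cytokines, and its activity accompanies entry into the cell cycle. The arrays measured RNA, so kinase activity and phosphorylation were not measured.

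Values are log2 signals after RMA, as deposited by the authors, and a difference of 1 is a doubling. A difference is given as the fitted value ± SE from limma, with batch as a factor, in the order Siro.F minus healthy, beside a p adjusted over 31711 probe sets. Of these probe sets 2824 passed the threshold of 0.05, which is 8.91%, and 1345 of them were higher and 1479 lower in Siro.F. With a gene represented by its brightest single-gene probe set, 647 of 10718 genes rose (6.04%) and 527 fell (4.92%), and the median difference over all genes was 0.02. In 60 genes (0.560%) all 4 Siro.F arrays lay above all 45 healthy animals, and in 32 genes (0.299%) all 4 lay below. The Siro.F arrays lie in batches 1 and 2, with 2 arrays in each (R.16 and R.17 in batch 1, R.13 and R.18 in batch 2), beside 15 healthy arrays. Within batch 1 alone 19 probe sets passed and within batch 2 alone 1334. In a fit of the 3 animals with both arrays, with the animal as a fixed block, no batch term and R.17 dropped, 0 of 31711 probe sets passed (limma, 3088 at an unadjusted p under 0.05). The count was 2963 with the animal as a random block over all arrays. Without R.18 it was 1016. Deviations from the healthy mean, taken over all probe sets, correlated at 0.28 to 0.49 between pairs of Siro.F arrays, which share that mean and in part a batch. The correlation of the Siro.F arrays with the healthy mean was 0.958 to 0.974, against 0.908 to 0.991 for single healthy animals. The difference between 3' and 5' actin control probe sets, a sign of RNA quality, was 0.41 to 2.00 in Siro.F and 0.25 to 3.95 in healthy animals.

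The 12 largest rises included an inhibitory receptor gene, an ectoenzyme gene and 4 cell division genes. In bulk samples more cells of a type and more RNA per cell cannot be told apart. SERPINE2, a secreted inhibitor of serine proteases, was 10.64 in R.13, 7.99 in R.16, 8.16 in R.17 and 10.64 in R.18, against 5.25 to 8.06 with a median of 6.19 in healthy animals. It rose by 3.27 ± 0.48, adjusted p = 1.2e-06, and only R.16 lay within the healthy range. LAG3, an inhibitory receptor for MHC class II, was 9.78 in R.13, 10.35 in R.16, 8.89 in R.17 and 10.13 in R.18, against 6.18 to 8.07 with a median of 7.23, so that the groups did not overlap (difference 2.64 ± 0.34, adjusted p = 3.8e-08). ENTPD1 (CD39), an ectoenzyme that breaks down extracellular ATP, was 7.33 in R.13, 8.13 in R.16, 7.10 in R.17 and 9.20 in R.18, against 5.02 to 6.49 with a median of 5.73 (difference 2.23 ± 0.27, adjusted p = 1.1e-08), again without overlap. EGR2, a transcription factor induced by the T cell receptor, showed another pattern. It was 4.98 in R.13, 7.68 in R.16, 4.32 in R.17 and 10.23 in R.18, against 3.68 to 6.65 with a median of 4.58 (difference 2.18 ± 0.56, adjusted p = 0.0061), and R.13 and R.17 lay within the healthy range. VDR, the vitamin D receptor, rose by 2.07 ± 0.34, MOCOS, a molybdenum cofactor sulfurase, by 2.09 ± 0.32, the zinc finger gene ZBED2 by 2.30 ± 0.55 and IFT46, an intraflagellar transport gene, by 2.18 ± 0.52. The other genes among the 12 largest rises were the cell division genes TOP2A, CCNB2, TYMS and UHRF1, described below. No longer past the threshold were EGR2, IFT46 and ZBED2 without R.18 (adjusted p from 0.12 to 0.41) and EGR2 without R.16 (adjusted p = 0.062). Among probe sets of one gene, 1 of 2 passed for EGR2 and IFT46.

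**Figure D1:**
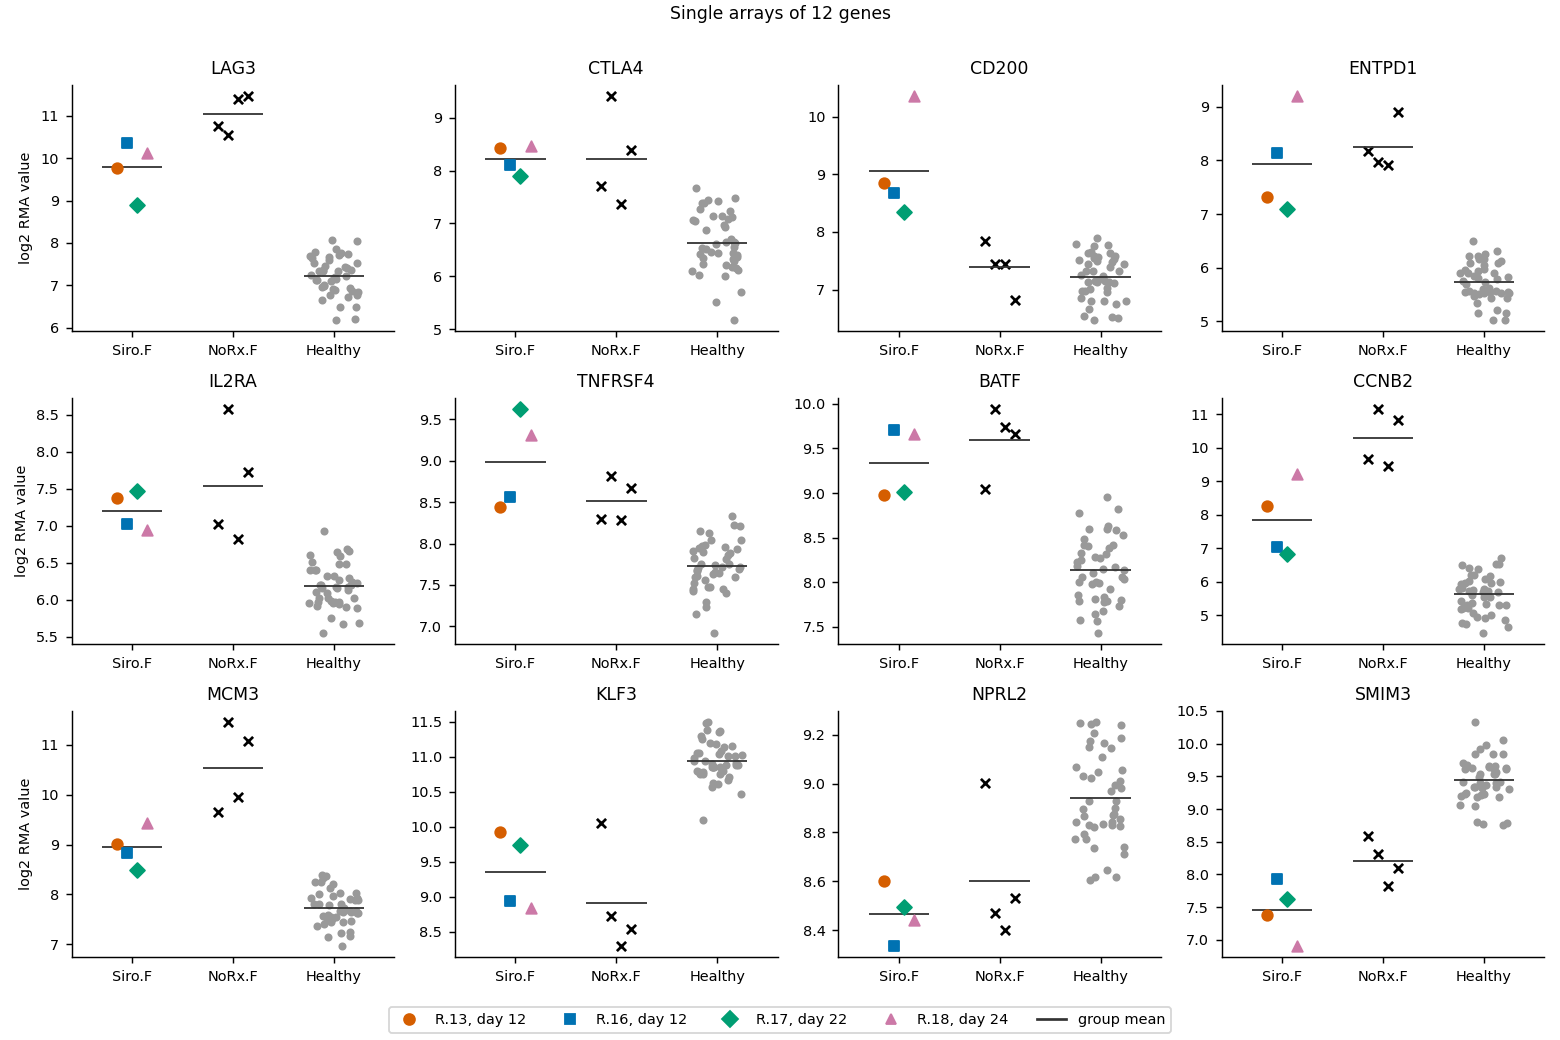
Log2 RMA value of 12 genes in each array, with Siro.F at the left (one symbol per animal), NoRx.F in the middle (crosses) and the 45 healthy animals at the right (grey points), and a line at each group mean. In every panel the 4 Siro.F arrays lie outside the healthy range, above it in the first 9 panels and below it for KLF3, NPRL2 and SMIM3. All 12 come from the 0.560% of genes with all 4 arrays above and the 0.299% below every healthy animal. The panels thus do not show how common such separation is.

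The largest falls were less alike between animals. SOX4, a transcription factor of progenitors and recently made T cells, was 6.88 in R.13, 5.60 in R.16, 5.29 in R.17 and 6.56 in R.18, against 4.55 to 11.30 with a median of 8.85 in healthy animals (difference -2.64 ± 0.75, adjusted p = 0.013). All 4 arrays lay within the wide healthy range. AUTS2, a nuclear regulator of transcription, was 8.06 in R.13, 6.86 in R.16, 7.90 in R.17 and 7.01 in R.18, against 7.93 to 11.33 with a median of 10.15 (difference -2.60 ± 0.42, adjusted p = 6.8e-06), and only R.13 lay within the healthy range. SMIM3, a small membrane protein, separated the groups completely. It was 7.38 in R.13, 7.93 in R.16, 7.63 in R.17 and 6.91 in R.18, against 8.75 to 10.33 with a median of 9.42 (difference -1.97 ± 0.20, adjusted p = 9.5e-11). MAML3, a coactivator of Notch, also had all 4 arrays below every healthy animal (-1.91 ± 0.38). IRS2, an adaptor of insulin and cytokine receptors, fell by 1.88 on the log2 scale and PLCL1, a phospholipase C relative without enzyme activity, by 1.81. COL11A1, C1H1orf21, METTL14, PPP2R2B, JAKMIP2 and NTN4 completed the 12 largest falls, with differences from -2.41 to -1.84, and each was lowest in R.13. Their values in R.16 were all inside the healthy range. Calls that needed a single array were those of SOX4, COL11A1, C1H1orf21, METTL14, NTN4 and PLCL1 without R.18 (adjusted p from 0.057 to 0.18), COL11A1, C1H1orf21, METTL14, PPP2R2B, JAKMIP2 and NTN4 without R.13 (adjusted p from 0.1 to 0.45) and SOX4 and METTL14 without R.17 (adjusted p from 0.052 to 0.089). By single-gene probe set, 1 of 3 passed for SOX4 and METTL14, 1 of 2 passed for COL11A1, MAML3, IRS2 and PLCL1 and 3 of 5 passed for C1H1orf21.

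Among the lists examined, genes of mitosis had the highest share of rises. Of 25 tested members 22 rose and 0 fell, with a median difference of 1.18. Over all genes 6.04% rose and 4.92% fell, and the counts of the later lists are to be read beside these shares. TOP2A, the topoisomerase that untangles chromosomes before they separate, was 8.79 in R.13, 8.17 in R.16, 7.11 in R.17 and 10.38 in R.18, against 4.49 to 7.75 with a median of 6.25 in healthy animals (difference 2.44 ± 0.48, adjusted p = 0.00021). CCNB2, a mitotic cyclin, was 8.27 in R.13, 7.03 in R.16, 6.83 in R.17 and 9.22 in R.18, against 4.47 to 6.72 with a median of 5.68 (difference 2.27 ± 0.45, adjusted p = 0.00022). Both were highest in R.18 and lowest in R.17, and only CCNB2 was free of overlap. KIF2C, a kinesin of the centromere, was 7.61 in R.13, 6.45 in R.16, 5.85 in R.17 and 9.17 in R.18, against 5.08 to 6.25 with a median of 5.64 (difference 1.77 ± 0.32, adjusted p = 6.9e-05), with R.17 alone inside the healthy range. MKI67, the marker of cycling cells, was 8.17 in R.13, 6.75 in R.16, 7.16 in R.17 and 8.84 in R.18, against 5.45 to 7.27 with a median of 6.07 (difference 1.58 ± 0.35, adjusted p = 0.0013), with R.16 and R.17 inside it. ASPM, a spindle pole protein, rose by 1.86 ± 0.44 and KIF4A, a chromosome kinesin, by 1.57 ± 0.29. The members that did not pass were AURKB at 0.65 (adjusted p = 0.11), PTTG1 at -0.50 (adjusted p = 0.38) and DLGAP5 at -0.65 (adjusted p = 0.43). PTTG1 (securin) and DLGAP5 (a spindle protein) each had a probe set of another call, since 1 of 4 for PTTG1 passed lower and 1 of 2 for DLGAP5 passed higher. Leaving out 1 array ended the call of ASPM, KIF2C and MKI67 without R.18 (adjusted p from 0.058 to 0.26).

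Genes of DNA replication and of the G1 to S transition rose in 21 of 30 cases and fell in 0, with a median of 0.85. TYMS, which makes thymidylate for DNA synthesis, was 7.18 in R.13, 5.75 in R.16, 5.50 in R.17 and 8.58 in R.18, against 3.62 to 6.04 with a median of 4.71 in healthy animals (difference 2.11 ± 0.48, adjusted p = 0.0016). R.16 and R.17 lay inside the healthy range. E2F2, a transcription factor of S phase entry, was 8.55 in R.13, 7.61 in R.16, 8.46 in R.17 and 8.82 in R.18, against 5.86 to 7.29 with a median of 6.55, with no overlap (difference 1.73 ± 0.30, adjusted p = 2.6e-05). UHRF1, which maintains DNA methylation, rose by 2.08 ± 0.42, E2F8, a repressor of the E2F family, by 2.03 ± 0.42, MCM10, a replication initiation factor, by 1.57 ± 0.30 and CHEK1, a checkpoint kinase, by 1.55 ± 0.26. E2F1 (0.18, adjusted p = 0.3) and RRM1, the large subunit of ribonucleotide reductase (0.14, adjusted p = 0.69), did not pass. With the mean of all its probe sets E2F1 did pass as a rise (0.32, limma, adjusted p = 0.019). In the probe sets of these genes, 2 of 3 passed for E2F2. Below the threshold with 1 array left out were TYMS, UHRF1, E2F8 and MCM10 without R.18 (adjusted p from 0.053 to 0.13).

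The size of the change in both lists differed between animals and batches. The median deviation of the mitosis genes from the healthy mean was 1.36 in R.13, 0.60 in R.16, 0.32 in R.17 and 2.25 in R.18, and that of the replication genes was 0.98 in R.13, 0.49 in R.16, 0.13 in R.17 and 1.54 in R.18. Thus R.17 at day 22 was lowest and R.18 at day 24 highest in both. The median fitted difference of the mitosis list was 0.36 within batch 1 and 1.91 within batch 2, and that of the replication list was 0.22 within batch 1 and 1.30 within batch 2. R.13 and R.18 share batch 2, so animal and batch cannot be told apart here. Without R.18, 7 of the 25 mitosis genes and 6 of the 30 replication genes passed, and the medians were 0.80 and 0.65. In the mean log2 level of the mitosis list, R.13, R.16 and R.18 lay above the highest healthy animal and R.17 did not, with 6.19 to 8.15 in Siro.F and 5.50 to 6.60 in healthy animals.

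Inhibitors of the cycle and genes of resting cells fell in 5 of 18 cases and rose in 1, with a median of -0.38. The median deviation from the healthy mean was -0.49 in R.13, -0.36 in R.16, -0.32 in R.17 and 0.05 in R.18, so that R.18 alone had a positive one. TXNIP, an inhibitor of thioredoxin and of glucose uptake, was 13.06 in R.13, 12.42 in R.16, 12.43 in R.17 and 11.89 in R.18, against 12.68 to 13.75 with a median of 13.32 in healthy animals (difference -0.88 ± 0.18, adjusted p = 0.0003). R.13 lay inside the healthy range and the others below it. PIK3IP1, a brake on PI3 kinase, fell to 9.38 in R.13, 8.78 in R.16, 8.94 in R.17 and 8.59 in R.18, against 9.19 to 10.84 with a median of 10.09 (difference -1.15 ± 0.23, adjusted p = 0.00022). KLF2, a transcription factor of quiescent T cells (-0.59, adjusted p = 0.0028), TSC22D3, a glucocorticoid-induced leucine zipper (-0.54, adjusted p = 0.035), and CDKN1B, the cyclin-dependent kinase inhibitor p27 (-0.48, adjusted p = 0.017), fell too. CDKN2C, the inhibitor p18, rose (0.71, adjusted p = 0.0058), and CDKN1A, the inhibitor p21, did not pass (-0.04, adjusted p = 0.97). The call was lost for KLF2, TSC22D3, CDKN1B and CDKN2C without R.18 (adjusted p from 0.0504 to 0.23), TSC22D3 without R.13 (adjusted p = 0.099) and KLF2 and TSC22D3 without R.16 (adjusted p from 0.082 to 0.18). Of the single-gene probe sets, 2 of 5 passed for TXNIP and 2 of 3 passed for PIK3IP1. With 1 array left out, the number called was 0 higher and 2 lower without R.18 for the cycle inhibitors.

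**Figure D2:**
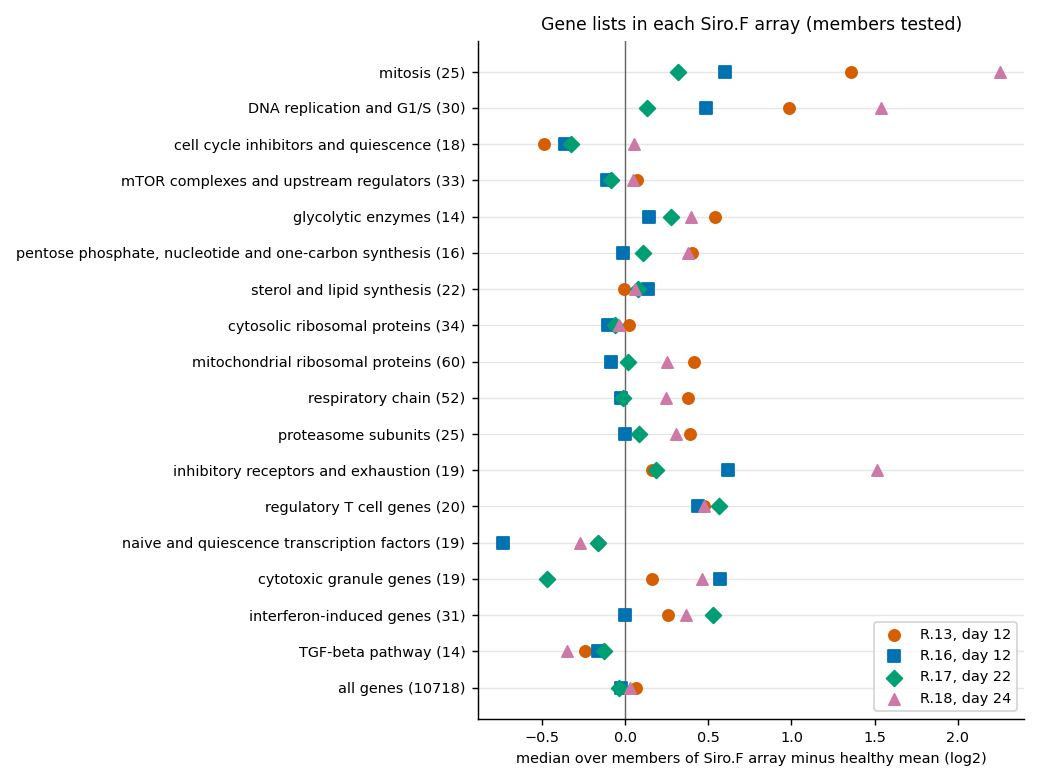
Median over the members of a list of the Siro.F array value minus the healthy mean (log2), one symbol per Siro.F animal, with the number of members tested in parentheses. The mitosis medians run from 0.32 in R.17 to 2.25 in R.18, while the medians over all 10718 genes lie close to 0 in every animal.

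Among the genes of the mTOR complexes and their upstream regulators, 2 of 33 rose and 5 fell, beside 6.04% risen and 4.92% fallen over all genes. The median difference was 0.02, as over all genes. MTOR, the kinase itself, was 8.68 in R.13, 8.54 in R.16, 8.63 in R.17 and 8.61 in R.18, against 8.25 to 8.98 with a median of 8.56 in healthy animals (difference 0.04 ± 0.10, adjusted p = 0.87). RPTOR, the subunit that defines complex 1, differed by -0.08 (adjusted p = 0.78), and DDIT4, a stress-induced inhibitor of that complex, by 0.57 (adjusted p = 0.43). Neither passed, and all 4 arrays lay inside the healthy range for the 3 genes. RICTOR, the subunit that defines complex 2, was 10.59 in R.13, 10.15 in R.16, 10.31 in R.17 and 10.20 in R.18, against 10.00 to 11.39 with a median of 10.82 (difference -0.49 ± 0.13, adjusted p = 0.01). SESN1, a sestrin that relays amino acid shortage to complex 1, was 8.47 in R.13, 9.10 in R.16, 8.48 in R.17 and 8.96 in R.18, against 9.15 to 10.68 with a median of 9.78, all 4 below every healthy animal (difference -1.02 ± 0.23, adjusted p = 0.0016). NPRL2, a subunit of the GATOR1 complex that restrains complex 1 when amino acids are low, was 8.60 in R.13, 8.33 in R.16, 8.49 in R.17 and 8.44 in R.18, against 8.61 to 9.25 with a median of 8.90, with all 4 arrays again below the healthy range (difference -0.44 ± 0.11, adjusted p = 0.0046). PIK3CA, a catalytic subunit of PI3 kinase, fell by 0.65 on the log2 scale. TBC1D7, the third subunit of the tuberous sclerosis complex (0.79, adjusted p = 0.0074), and MAPKAP1, a subunit of complex 2 (0.46, adjusted p = 0.019), rose. The TBC1D7 difference was 0.01 within batch 1 and 1.39 within batch 2. TSC1, another subunit of the tuberous sclerosis complex, fell, and that call did not hold without R.17 or without R.16. FKBP5, an immunophilin of the same family as the sirolimus target, did not pass (0.32, adjusted p = 0.5). Calls that needed a single array were those of TBC1D7, MAPKAP1, PIK3CA and RICTOR without R.18 (adjusted p from 0.12 to 0.2), TBC1D7 and MAPKAP1 without R.13 (adjusted p from 0.1 to 0.19), MAPKAP1 and PIK3CA without R.17 (adjusted p from 0.066 to 0.068) and PIK3CA without R.16 (adjusted p = 0.17). Among probe sets of one gene, 2 of 3 passed for MAPKAP1 and 1 of 2 passed for RICTOR. With 1 array left out, the number called was 1 higher and 3 lower without R.18 and 1 higher and 3 lower without R.17 for the mTOR list.

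Glycolytic enzymes rose in 3 of 14 cases and fell in 0 (median 0.28). LDHA, lactate dehydrogenase A, was 12.77 in R.13, 12.84 in R.16, 12.62 in R.17 and 12.75 in R.18, against 11.61 to 12.38 with a median of 12.06 in healthy animals (difference 0.68 ± 0.12, adjusted p = 2.6e-05). ENO1, an enolase, was 13.09 in R.13, 12.93 in R.16, 12.78 in R.17 and 13.03 in R.18, against 12.22 to 12.72 with a median of 12.46 (difference 0.47 ± 0.07, adjusted p = 4.9e-06). The 4 arrays lay above all healthy animals for both genes, and the LDHA difference was 0.68 within batch 1 and 0.69 within batch 2. PKM, pyruvate kinase, rose by 0.46 ± 0.14. HK2 (0.78, adjusted p = 0.089) and GAPDH (0.44, adjusted p = 0.1) did not pass, nor did the glucose transporter SLC2A1 (0.03, adjusted p = 0.93). Of 11 genes of nutrient and iron uptake 2 rose, namely SLC16A1, a lactate transporter (1.51, adjusted p = 0.0067), and TFRC, the transferrin receptor (0.55, adjusted p = 0.037). The SLC16A1 difference was -0.26 within batch 1 and 2.93 within batch 2. Below the threshold with 1 array left out were PKM, SLC16A1 and TFRC without R.18 (adjusted p from 0.082 to 0.41), PKM, SLC16A1 and TFRC without R.13 (adjusted p from 0.09 to 0.34) and PKM without R.17 (adjusted p = 0.051). By single-gene probe set, 2 of 4 passed for ENO1 and 1 of 2 passed for PKM.

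Enzymes of nucleotide and one-carbon synthesis rose in 4 of 16 cases and fell in 0 (median 0.17). MTHFD1, which interconverts folates that carry one-carbon units, was 9.81 in R.13, 10.16 in R.16, 9.48 in R.17 and 10.53 in R.18, against 8.42 to 9.70 with a median of 9.0 in healthy animals (difference 1.00 ± 0.17, adjusted p = 3.2e-05). Only R.17 lay inside the healthy range. CTPS1, the CTP synthase of dividing lymphocytes, rose by 0.65 ± 0.15, ATIC, a purine synthesis enzyme, by 0.55 ± 0.13 and SHMT2, a mitochondrial serine hydroxymethyltransferase, by 0.45 ± 0.15. Of 15 targets of the amino acid response factor ATF4 only WARS1, a tryptophan tRNA ligase, rose (0.81, adjusted p = 0.0064). ATF4 itself (0.08, adjusted p = 0.78) and ASNS, asparagine synthetase (-0.21, adjusted p = 0.83), did not pass. The call was lost for SHMT2 and WARS1 without R.18 (adjusted p from 0.087 to 0.19), CTPS1, ATIC and SHMT2 without R.13 (adjusted p from 0.062 to 0.37) and SHMT2 without R.17 (adjusted p = 0.24). In the probe sets of these genes, 1 of 2 passed for SHMT2 and 2 of 3 passed for WARS1.

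Sterol and lipid synthesis genes had 3 rises of 22, no fall and a median of 0.06. STARD4, a cholesterol carrier, was 7.99 in R.13, 8.40 in R.16, 8.05 in R.17 and 8.57 in R.18, against 5.25 to 7.47 with a median of 6.98 in healthy animals, with no overlap (difference 1.38 ± 0.24, adjusted p = 2.9e-05). Its difference was 1.37 within batch 1 and 1.36 within batch 2. PMVK, phosphomevalonate kinase (0.58, adjusted p = 0.0039), and FDFT1, squalene synthase (0.33, adjusted p = 0.016), rose less. SREBF2, the transcription factor of sterol synthesis, differed by 0.08 (adjusted p = 0.76), its targets SQLE by 0.15 (adjusted p = 0.78) and INSIG1 by -0.46 (adjusted p = 0.0502), and none of these passed. No longer past the threshold were PMVK and FDFT1 without R.18 (adjusted p from 0.081 to 0.12). Of the single-gene probe sets, 1 of 2 passed for STARD4 and FDFT1.

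The machinery of protein synthesis showed small differences. Of 34 cytosolic ribosomal protein genes 0 rose and 3 fell (median -0.06). RPLP2 was 13.86 in R.13, 13.70 in R.16, 13.82 in R.17 and 13.69 in R.18, against 13.86 to 14.13 with a median of 13.97 in healthy animals, with all 4 arrays just below the lowest of them (difference -0.21 ± 0.05, adjusted p = 0.0024). RPL32 (-0.62, adjusted p = 0.00046) and RPS10 (-0.48, adjusted p = 0.00036) fell too, while RPS6, whose protein is phosphorylated downstream of mTOR complex 1, did not pass (-0.05, adjusted p = 0.52). Ribosome biogenesis genes rose in 4 of 35 cases, led by BYSL, an assembly factor of the small subunit, which was 6.80 in R.13, 6.51 in R.16, 5.59 in R.17 and 6.28 in R.18, against 4.98 to 6.12 with a median of 5.58 (difference 0.79 ± 0.15, adjusted p = 0.0001). MYC, a transcription factor that drives ribosome biogenesis, was 10.80 in R.13, 9.99 in R.16, 9.90 in R.17 and 10.50 in R.18, against 9.07 to 11.25 with a median of 10.27, inside the healthy range in every animal (difference -0.01 ± 0.30, adjusted p = 0.99). Of 16 factors of translation initiation and elongation 1 rose, EIF2S1 (0.44, adjusted p = 0.011), and 1 fell, EIF2B1 (-0.31, adjusted p = 0.012). Calls that needed a single array were those of RPLP2 and EIF2S1 without R.18 (adjusted p from 0.062 to 0.099), EIF2B1 without R.17 (adjusted p = 0.088) and EIF2B1 without R.16 (adjusted p = 0.056). Among probe sets of one gene, 1 of 2 passed for RPL32 and EIF2B1 and 1 of 4 passed for EIF2S1. The number called after leaving out 1 array was 1 without R.18 and 1 without R.13 for the ribosome biogenesis list.

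Mitochondrial ribosomal proteins rose in 8 of 60 cases (median 0.13), respiratory chain genes in 4 of 52 (median 0.15) and proteasome subunits in 6 of 25 (median 0.20), with 0 falls in the 3 lists. Over all genes 6.04% rose and 4.92% fell. MRPL12, which also binds the mitochondrial RNA polymerase, was 9.20 in R.13, 8.77 in R.16, 8.43 in R.17 and 8.97 in R.18, against 7.75 to 8.59 with a median of 8.27 in healthy animals (difference 0.61 ± 0.12, adjusted p = 0.00014). ATP5MC1, a subunit c gene of ATP synthase, was 9.88 in R.13, 9.66 in R.16, 9.69 in R.17 and 9.54 in R.18, against 8.72 to 9.52 with a median of 9.13, without overlap (difference 0.54 ± 0.11, adjusted p = 0.0005). PSMB10, a subunit of the immunoproteasome, was 11.15 in R.13, 10.36 in R.16, 10.82 in R.17 and 11.23 in R.18, against 9.56 to 10.72 with a median of 10.26 (difference 0.64 ± 0.15, adjusted p = 0.0023), with R.16 inside the healthy range. PSME2, a subunit of the proteasome activator PA28, rose by 0.55 ± 0.12, MRPL57 by 0.65 ± 0.14 and COX6B1, a subunit of cytochrome oxidase, by 0.37 ± 0.11. The batches differed here. The median difference was -0.07 within batch 1 and 0.34 within batch 2 for the mitochondrial ribosomal proteins, -0.06 within batch 1 and 0.36 within batch 2 for the respiratory chain and 0.00 within batch 1 and 0.39 within batch 2 for the proteasome. Endoplasmic reticulum genes rose in 3 of 20 cases, with SEC61B, a subunit of the protein translocation channel, at 0.43 (adjusted p = 0.00045), and autophagy and lysosome genes in 4 of 30, with MITF, a transcription factor of lysosomal genes, at 0.81 (adjusted p = 0.0012). TFEB, the related factor that mTOR complex 1 holds in the cytoplasm (-0.17, adjusted p = 0.6), and ULK1, a kinase that starts autophagy (-0.11, adjusted p = 0.73), did not pass. Below the threshold with 1 array left out were COX6B1 and PSMB10 without R.18 (adjusted p from 0.088 to 0.2) and COX6B1, PSME2 and MITF without R.13 (adjusted p from 0.069 to 0.24). The number called after leaving out 1 array was 5 without R.18 and 3 without R.13 for the mitochondrial ribosomal proteins, 1 without R.18 and 1 without R.13 for the respiratory chain, 1 without R.18 and 2 without R.13 for the proteasome, 1 without R.18 for the endoplasmic reticulum and 1 without R.18 and 0 without R.13 for the autophagy and lysosome list.

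Inhibitory receptors and genes of exhausted T cells rose in 8 of 19 cases and fell in 0, with a median of 0.60, and 4 of them (LAG3, ENTPD1, CD200 and CTLA4) had no overlap with healthy animals. CTLA4, which competes with CD28 for its ligands, was 8.44 in R.13, 8.10 in R.16, 7.90 in R.17 and 8.47 in R.18, against 5.17 to 7.67 with a median of 6.56 (difference 1.57 ± 0.34, adjusted p = 0.00088). CD200, a membrane ligand that restrains myeloid cells, was 8.86 in R.13, 8.68 in R.16, 8.34 in R.17 and 10.36 in R.18, against 6.47 to 7.89 with a median of 7.24 (difference 1.86 ± 0.27, adjusted p = 7.8e-07). TIGIT, a receptor for CD155, was 10.21 in R.13, 10.97 in R.16, 11.13 in R.17 and 11.68 in R.18, against 8.39 to 10.41 with a median of 9.56 (difference 1.48 ± 0.24, adjusted p = 9.3e-06), with R.13 alone inside the healthy range. EOMES, a T-box transcription factor of effector and memory cells, was 10.72 in R.13, 9.39 in R.16, 9.36 in R.17 and 11.15 in R.18, against 8.02 to 10.33 with a median of 9.17 (difference 1.04 ± 0.34, adjusted p = 0.041), with R.16 and R.17 inside it. TOX, a nuclear factor of exhaustion, did not pass (0.26, adjusted p = 0.45). No longer past the threshold were EOMES without R.18 (adjusted p = 0.35) and EOMES without R.13 (adjusted p = 0.2). Without R.18, 6 of the 19 passed. The list median was 0.41 within batch 1 and 0.78 within batch 2.

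Among 20 regulatory T cell genes, 6 passed as rises and 1 as a fall (median 0.30), and 3 of the 6, ENTPD1, CTLA4 and TIGIT, are also on the list above. IL2RA (CD25), the high-affinity chain of the interleukin-2 receptor, was 7.37 in R.13, 7.02 in R.16, 7.47 in R.17 and 6.94 in R.18, against 5.55 to 6.92 with a median of 6.16 in healthy animals (difference 0.97 ± 0.20, adjusted p = 0.00052). TNFRSF4 (OX40), a costimulatory receptor, was 8.44 in R.13, 8.56 in R.16, 9.63 in R.17 and 9.31 in R.18, against 6.92 to 8.33 with a median of 7.71 (difference 1.22 ± 0.18, adjusted p = 1.8e-06), and its values at days 22 and 24 were the higher ones. BATF, a transcription factor of effector and tissue T cells, was 8.97 in R.13, 9.71 in R.16, 9.01 in R.17 and 9.67 in R.18, against 7.43 to 8.96 with a median of 8.14 (difference 1.21 ± 0.20, adjusted p = 1.8e-05). None of the 3 genes overlapped with healthy animals. FOXP3, the factor that defines regulatory T cells, was 5.43 in R.13, 4.95 in R.16, 5.56 in R.17 and 4.94 in R.18, against 4.52 to 5.46 with a median of 5.08, near the dim end of the array (difference 0.15 ± 0.13, adjusted p = 0.57). IKZF2 (Helios), another factor of these cells, did not pass (-0.55, adjusted p = 0.38), and the decoy receptor IL1R2 fell (-0.60, adjusted p = 0.027), in 1 of its 3 probe sets. TNFSF4, the ligand of OX40, was 6.58 in R.13, 6.76 in R.16, 5.47 in R.17 and 7.38 in R.18, against 4.54 to 5.88 with a median of 5.42 (difference 1.21 ± 0.21, adjusted p = 4.1e-05), with R.17 inside the healthy range. It and TNFRSF4 were the only rises among 19 costimulatory genes. CD28 (0.03, adjusted p = 0.96), ICOS (0.33, adjusted p = 0.45) and CD40LG (-0.28, adjusted p = 0.51) did not pass. Calls that needed a single array were those of IL1R2 without R.18 (adjusted p = 0.2), IL1R2 without R.13 (adjusted p = 0.067) and IL1R2 without R.17 (adjusted p = 0.091).

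Transcription factors of naive and quiescent T cells fell in 6 of 19 cases and rose in 1 (median -0.34), and the falls include KLF2, already counted above. KLF3, a repressor of the Krüppel-like family, was 9.92 in R.13, 8.94 in R.16, 9.74 in R.17 and 8.83 in R.18, against 10.10 to 11.50 with a median of 10.89 in healthy animals, all 4 below the lowest of them (difference -1.51 ± 0.21, adjusted p = 3.1e-07). RUNX1, a regulator of T cell development, was 8.26 in R.13, 8.65 in R.16, 9.13 in R.17 and 8.74 in R.18, against 9.18 to 10.02 with a median of 9.57, also without overlap (difference -0.87 ± 0.14, adjusted p = 7.5e-06). FOXP1, which maintains quiescence, fell by 0.78 on the log2 scale and KLF7 by 0.81, and TCF7, the factor of naive and stem-like T cells, did not pass (-0.30, adjusted p = 0.33). ID3, an inhibitor of E proteins, was the rise, at 9.51 in R.13, 10.67 in R.16, 9.02 in R.17 and 11.16 in R.18, against 7.90 to 9.93 with a median of 8.74 (difference 1.43 ± 0.31, adjusted p = 0.00081). Among 16 effector transcription factors 3 rose and 2 fell, and the rises of BATF and EOMES and the fall of RUNX1 were already counted in the lists above. IRF8, an interferon regulatory factor, was 8.06 in R.13, 9.08 in R.16, 6.54 in R.17 and 9.20 in R.18, against 5.29 to 6.96 with a median of 6.12, with R.17 alone inside the healthy range (difference 2.07 ± 0.29, adjusted p = 3.1e-07). ZEB2, a factor of terminally differentiated cells, fell by 1.68 on the log2 scale, and TBX21 (T-bet, -0.77, adjusted p = 0.3) and PRDM1 (Blimp-1, 0.56, adjusted p = 0.29) did not pass. Of 11 surface genes of naive and memory cells 2 fell, ITGA6 (-0.78, adjusted p = 0.019) and PECAM1 (-0.69, adjusted p = 0.049), and the homing receptor CCR7 did not pass (-0.35, adjusted p = 0.62). Leaving out 1 array ended the call of KLF7, ID3, ZEB2, ITGA6 and PECAM1 without R.18 (adjusted p from 0.065 to 0.26), KLF7 and ZEB2 without R.13 (adjusted p from 0.087 to 0.18), ZEB2 and PECAM1 without R.17 (adjusted p from 0.089 to 0.096) and KLF7 and PECAM1 without R.16 (adjusted p from 0.17 to 0.29). By single-gene probe set, 1 of 5 passed for RUNX1, 4 of 5 passed for KLF3, 3 of 4 passed for FOXP1, 1 of 3 passed for KLF7, 1 of 2 passed for ID3, 1 of 4 passed for ITGA6 and 2 of 3 passed for PECAM1. The number called after leaving out 1 array was 0 higher and 3 lower without R.18 for the naive and quiescence factors.

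Of 19 cytotoxic granule and killing genes 0 rose and 0 fell, with a median of 0.19. GZMB, granzyme B, was 13.23 in R.13, 13.93 in R.16, 11.91 in R.17 and 13.57 in R.18, against 11.37 to 13.60 with a median of 12.84 in healthy animals (difference 0.44 ± 0.35, adjusted p = 0.51), and GNLY, granulysin, differed by 0.68 (adjusted p = 0.34) and FASLG by 1.22 (adjusted p = 0.052). Cytokine genes rose in 4 of 19 cases. IFNG, interferon gamma, was 4.89 in R.13, 7.59 in R.16, 5.24 in R.17 and 9.61 in R.18, against 3.99 to 7.97 with a median of 5.32 (difference 1.56 ± 0.52, adjusted p = 0.044), with R.18 alone outside the healthy range. IL21, a cytokine of follicular helper cells, was 4.76 in R.13, 5.13 in R.16, 4.56 in R.17 and 6.94 in R.18, against 4.09 to 5.39 with a median of 4.57 (difference 0.84 ± 0.19, adjusted p = 0.002), and CXCL13, a chemokine for B cells, was 5.14 in R.13, 5.22 in R.16, 5.73 in R.17 and 8.62 in R.18, against 4.41 to 5.88 with a median of 5.21 (difference 0.96 ± 0.29, adjusted p = 0.02). R.18 alone lay outside the healthy range for these 2 genes as well, and the healthy medians of both were near the dim end of the array. LIF rose by 0.47 ± 0.13. CCL3 (1.73, adjusted p = 0.075), CCL5 (-1.24, adjusted p = 0.14) and IL2 (-0.07, adjusted p = 0.78) did not pass. The call was lost for IFNG, IL21, CXCL13 and LIF without R.18 (adjusted p from 0.24 to 0.92) and IFNG and LIF without R.16 (adjusted p from 0.17 to 0.21).

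Of 28 cytokine receptor and JAK-STAT genes 6 rose and 1 fell, and these include the rise of IL2RA and the fall of IL1R2 already counted above. CISH, a feedback inhibitor induced by STAT5, was 9.41 in R.13, 9.64 in R.16, 9.52 in R.17 and 10.00 in R.18, against 7.09 to 9.89 with a median of 8.41 in healthy animals (difference 1.22 ± 0.37, adjusted p = 0.025). PIM1, a kinase induced by STAT proteins, was 11.79 in R.13, 11.24 in R.16, 11.62 in R.17 and 11.18 in R.18, against 8.53 to 11.38 with a median of 10.66 (difference 0.81 ± 0.21, adjusted p = 0.007). All 4 arrays lay above the healthy median in both genes, R.18 alone above the healthy range for CISH, and R.13 and R.17 for PIM1. IL1RL1 (ST2), the receptor of interleukin-33, rose by 0.64 ± 0.12, IL18RAP, an interleukin-18 receptor chain, by 1.42 ± 0.42 and JAK2 by 0.70 ± 0.22. Of 14 chemokine and egress receptors CXCR3 (0.76, adjusted p = 0.011) and S1PR4 (0.52, adjusted p = 0.019) rose and 0 fell, and CXCR4 (-0.79, adjusted p = 0.16) did not pass. The median of these receptors was nevertheless negative, at -0.35, and only 4 of the 14 differences were positive. Among 18 integrin and homing genes 2 rose and 2 fell (median 0.01), and the falls were ITGA6 and PECAM1, named above. The collagen receptor subunit ITGA2 was 6.70 in R.13, 5.54 in R.16, 6.37 in R.17 and 7.38 in R.18, against 3.82 to 6.29 with a median of 4.57 (difference 1.80 ± 0.34, adjusted p = 0.00013), and ITGAE (CD103) rose by 0.77 ± 0.20. Of 27 genes of T cell receptor signalling 3 rose and 2 fell: SLA (0.85, adjusted p = 0.018), PTPN6 (0.57, adjusted p = 0.017) and CSK (0.35, adjusted p = 0.0068), which dampen the signal, rose, and GRAP2 (-0.71, adjusted p = 0.01) and NFATC3 (-0.39, adjusted p = 0.024) fell. ZAP70 (-0.08, adjusted p = 0.73) and LAT (-0.02, adjusted p = 0.96) did not pass. No longer past the threshold were CISH, IL18RAP, JAK2, CXCR3, S1PR4, SLA, PTPN6, CSK, GRAP2 and NFATC3 without R.18 (adjusted p from 0.06 to 0.24), PIM1, JAK2, S1PR4, ITGAE and NFATC3 without R.13 (adjusted p from 0.067 to 0.21), CISH, IL18RAP, JAK2, S1PR4 and NFATC3 without R.17 (adjusted p from 0.052 to 0.096) and CISH, IL18RAP, ITGAE, SLA and PTPN6 without R.16 (adjusted p from 0.067 to 0.19). In the probe sets of these genes, 1 of 2 passed for CISH, 1 of 3 passed for JAK2 and 1 of 4 passed for NFATC3. With 1 array left out, the number called was 3 higher and 0 lower without R.18, 4 higher and 0 lower without R.13 and 4 higher and 0 lower without R.17 for the cytokine receptor list and 0 higher and 0 lower without R.18 for the signalling list.

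Of 31 interferon-induced genes 3 rose and 0 fell (median 0.25), beside 6.04% risen and 4.92% fallen over all genes. ISG15, a ubiquitin-like protein, was 9.35 in R.13, 8.09 in R.16, 9.71 in R.17 and 9.44 in R.18, against 7.31 to 9.30 with a median of 7.93 in healthy animals (difference 1.14 ± 0.38, adjusted p = 0.043), with R.16 inside the healthy range. EPSTI1 (1.09, adjusted p = 0.033) and IFI35 (0.64, adjusted p = 0.016) rose too, and MX1 (0.20, adjusted p = 0.86) and IFI27 (1.34, adjusted p = 0.11) did not pass. Of 20 genes of the NF-kB family and its inhibitors 3 rose and 1 fell. NFKB1, the p105 and p50 subunit, was 11.14 in R.13, 10.83 in R.16, 10.67 in R.17 and 11.34 in R.18, against 9.80 to 10.87 with a median of 10.32 (difference 0.66 ± 0.14, adjusted p = 0.00046), with R.16 and R.17 inside the healthy range, and TNFAIP3 (A20), an inhibitor, fell (-0.85, adjusted p = 0.046). Of 19 BCL2 family and death receptor genes 3 rose, all of them promoters of apoptosis. BCL2L11 (BIM) was 11.26 in R.13, 10.40 in R.16, 10.99 in R.17 and 11.16 in R.18, against 9.43 to 10.69 with a median of 9.97 (difference 0.99 ± 0.21, adjusted p = 0.00061), BIK differed by 1.19 ± 0.26 and BAK1 by 0.64 ± 0.15. BCL2 (0.12, adjusted p = 0.77) and MCL1 (-0.11, adjusted p = 0.62), which oppose apoptosis, did not pass. Leaving out 1 array ended the call of ISG15, EPSTI1, IFI35 and BAK1 without R.18 (adjusted p from 0.068 to 0.25), ISG15, EPSTI1, IFI35 and TNFAIP3 without R.13 (adjusted p from 0.054 to 0.17), ISG15, EPSTI1, IFI35 and TNFAIP3 without R.17 (adjusted p from 0.073 to 0.16) and TNFAIP3 without R.16 (adjusted p = 0.19). Of the single-gene probe sets, 1 of 5 passed for TNFAIP3 and 5 of 6 passed for BCL2L11. With 1 array left out, the number called was 0 without R.18, 0 without R.13 and 0 without R.17 for the interferon-induced genes and 1 higher and 1 lower without R.18 and 2 higher and 0 lower without R.13 for the NF-kB list.

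In the TGF-beta list 5 of 14 members fell and 1, SERPINE2, rose (median -0.19). SMAD7, the inhibitory SMAD, was 6.81 in R.13, 7.28 in R.16, 7.66 in R.17 and 7.64 in R.18, against 7.55 to 9.54 with a median of 8.81 in healthy animals (difference -1.29 ± 0.34, adjusted p = 0.0075). TGFBR1, the type I receptor, was 9.40 in R.13, 9.93 in R.16, 9.33 in R.17 and 9.60 in R.18, against 9.71 to 10.44 with a median of 10.17 (difference -0.58 ± 0.14, adjusted p = 0.0036). R.16 lay inside the healthy range for TGFBR1, and R.17 and R.18 did for SMAD7. SMURF2, a ubiquitin ligase that acts with SMAD7, fell by 0.71 on the log2 scale, TGIF1, a corepressor, by 0.65 and SMAD3, a receptor-activated SMAD, by 0.31. TGFBR2, the type II receptor, did not pass (0.10, adjusted p = 0.74). Immediate early genes, which handling of cells can also raise, had 1 rise (EGR2) and 1 fall (ZFP36L2, -0.74, adjusted p = 0.0013) among 17, and FOS was 11.43 in R.13, 8.66 in R.16, 8.22 in R.17 and 13.06 in R.18, against 6.73 to 13.99 with a median of 8.69 (difference 1.26 ± 0.94, adjusted p = 0.47). The mean level of the immediate early genes was 9.16 in R.13, 9.06 in R.16, 8.50 in R.17 and 10.14 in R.18, against 8.19 to 9.87 with a median of 8.88, so that R.18 alone lay above the healthy range, and its part in the results above was not tested. Heat shock and handling genes had 1 rise in 10, HSPA8 (0.62, adjusted p = 0.00045). The call was lost for EGR2 and SMAD3 without R.18 (adjusted p from 0.14 to 0.41), SMAD7, TGFBR1 and SMAD3 without R.13 (adjusted p from 0.07 to 0.1), SMAD3 without R.17 (adjusted p = 0.095) and EGR2 without R.16 (adjusted p = 0.062). Among probe sets of one gene, 1 of 2 passed for TGFBR1, 1 of 4 passed for SMAD3, 1 of 3 passed for ZFP36L2 and 2 of 3 passed for HSPA8.

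Markers of the sorted cells and of other cells were examined next. Of 14 core T cell markers 8 were tested, 0 rose and 0 fell, and their mean level was 9.09 to 9.41 in Siro.F and 9.09 to 9.73 in healthy animals. The CD3 genes were not analysed here, as they have no single-gene probe set among those tested. CD8A was 12.84 in R.13, 12.96 in R.16, 11.61 in R.17 and 12.85 in R.18, against 11.63 to 12.76 with a median of 12.36 (difference 0.26 ± 0.15, adjusted p = 0.32), and CD4 differed by 0.19 (adjusted p = 0.61). R.13, R.16 and R.18 lay above the healthy CD8A range and R.17 below it. The mean level of 13 monocyte and myeloid markers was 6.40 to 7.36 in Siro.F, against 5.47 to 7.72 in healthy animals, and 0 passed. S100A8 and S100A9, the calprotectin genes, were high in R.13. S100A8 was 11.91 in R.13, 8.80 in R.16, 8.56 in R.17 and 9.02 in R.18, against 4.73 to 9.02 with a median of 6.77 (difference 2.50 ± 0.93, adjusted p = 0.076). Of 8 NK cell markers 0 passed, with a mean of 7.92 to 9.82 in Siro.F, against 7.52 to 10.35. Of 9 plasma cell markers MZB1 (1.05, adjusted p = 4.9e-06) and XBP1 (0.42, adjusted p = 0.037) rose, and the median difference of the list was 0.44. Their mean level was 7.45 to 8.19 in Siro.F, against 7.07 to 7.84, with R.16 (7.97) and R.18 (8.19) above the healthy range. Of 8 B cell markers CD79B (0.73, adjusted p = 0.012) and FCRL1 (0.42, adjusted p = 0.02) rose, with a mean of 6.04 to 6.43, against 5.46 to 6.65. None of 8 granulocyte, 6 erythroid, 7 platelet or 3 progenitor markers passed. The mean level of the granulocyte markers was 4.79 to 5.60 in Siro.F, against 4.42 to 5.37 in healthy animals, with R.13 alone above the healthy range. The part of these markers in the results above was not tested. No longer past the threshold were XBP1 and FCRL1 without R.18 (adjusted p from 0.077 to 0.094), XBP1, CD79B and FCRL1 without R.13 (adjusted p from 0.08 to 0.3), XBP1 without R.17 (adjusted p = 0.088) and XBP1 without R.16 (adjusted p = 0.13). By single-gene probe set, 1 of 2 passed for XBP1 and CD79B.

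For 3 animals the Siro.F array can be set beside the animal's own healthy array. The healthy arrays of all 3 lie in batch 2, but the Siro.F array of R.16 lies in batch 1. In the R.16 pair, batch and the change cannot be told apart. Whether T cells after the transplant came from the animal or from its donor was not tested. Deviations of the 2 arrays of one animal correlated at -0.118 in R.13, -0.0905 in R.18 and -0.0346 in R.16. The median correlation with other healthy animals was 0.010, 0.022 and -0.012 in the same order, so arrays of one animal were not the more alike. LAG3 was 9.78 in the Siro.F array and 6.99 in the healthy array of R.13, 10.35 against 7.40 in R.16 and 10.13 against 6.18 in R.18. KIF2C was 7.61 in the Siro.F array and 5.36 in the healthy array of R.13, 6.45 against 5.38 in R.16 and 9.17 against 5.42 in R.18. The 3 animals had close KIF2C values when healthy and unlike ones in their Siro.F arrays. MTHFD1 was 9.81 in the Siro.F array and 9.15 in the healthy array of R.13, 10.16 against 8.90 in R.16 and 10.53 against 8.71 in R.18. SMIM3, among the falls, was 7.38 in the Siro.F array and 9.63 in the healthy array of R.13, 7.93 against 9.34 in R.16 and 6.91 against 9.62 in R.18. Over the 25 mitosis genes the median of the differences between the arrays of the same animal was 1.36 in R.13, 0.74 in R.16 and 2.42 in R.18, and over the inhibitory receptors it was -0.20, 0.72 and 1.35 in the same animals. R.13 thus had a negative median for the inhibitory receptors against its own healthy array, although LAG3 and CD200 were higher in it. Of the 12 largest falls, COL11A1 was 3.07 in the Siro.F array and 9.02 in the healthy array of R.13, 5.70 against 5.73 in R.16 and 3.53 against 4.17 in R.18. METTL14 was 7.11 in the Siro.F array and 12.63 in the healthy array of R.13, 11.58 against 10.60 in R.16 and 10.22 against 9.88 in R.18. Both were far lower in the Siro.F array than in the healthy array of R.13 and not in R.16, and the healthy COL11A1 value of R.18 was the lowest of the 45. Over the NK cell markers the median was -2.64 in R.13, 0.75 in R.16 and 0.69 in R.18. Their part in these differences was not tested.

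**Figure D3:**
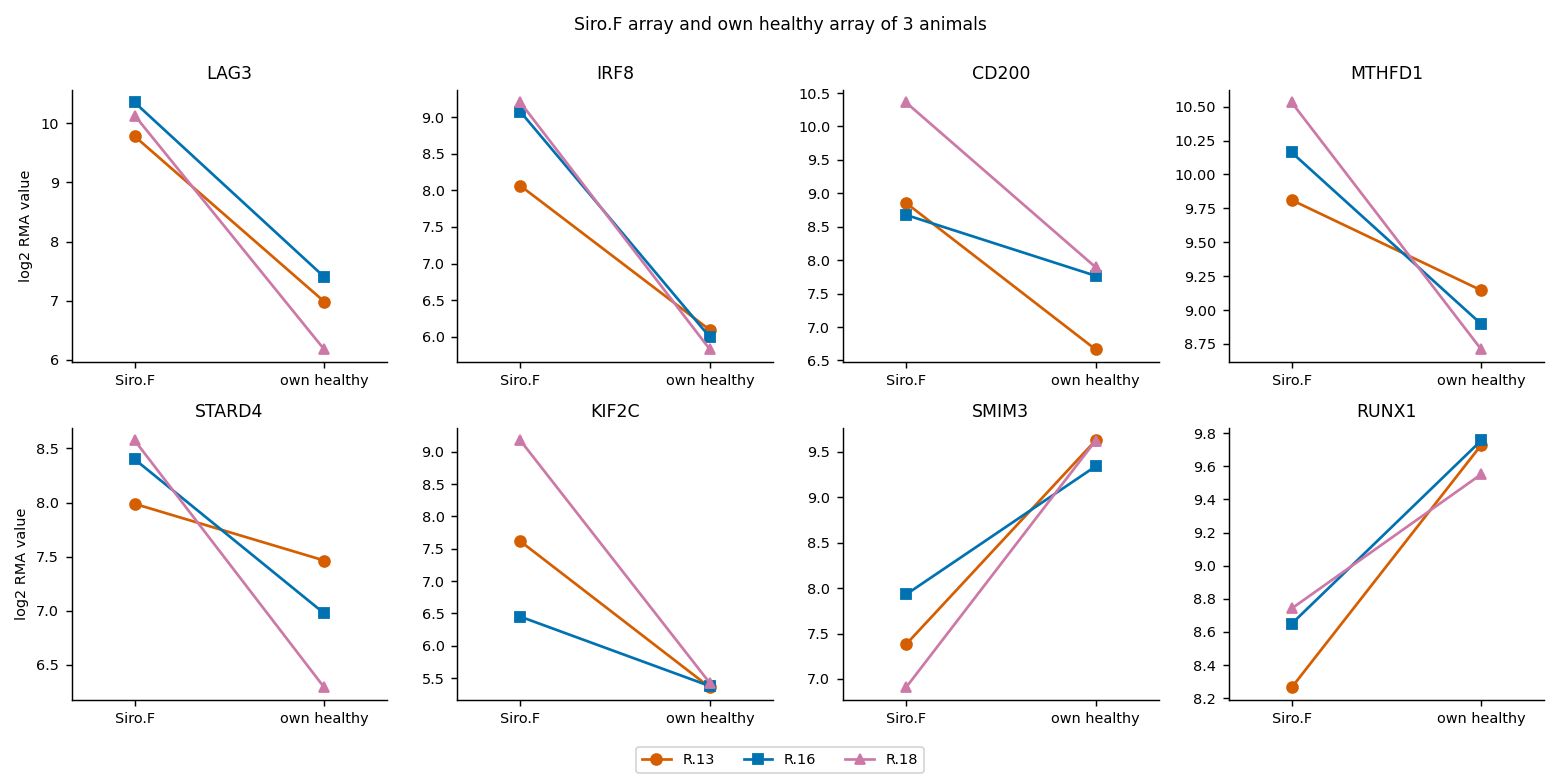
Log2 RMA value of 8 genes in the Siro.F array (left) and in the healthy array (right) of R.13, R.16 and R.18, with a line joining the arrays of an animal. LAG3, IRF8, CD200, MTHFD1, STARD4 and KIF2C were higher in Siro.F in all 3 animals, and SMIM3 and RUNX1 were lower. The arrays of R.16 come from different batches.

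The later arrays (R.17 and R.18, days 22 and 24) were set against the day 12 arrays (R.13 and R.16), with 1 array of each batch on both sides. Of 31711 probe sets 3 passed (0.00946%, limma, 1689 at an unadjusted p under 0.05), of which 1 was higher and 2 lower at the later days. The single one with a gene name was that of CMYA5, a muscle gene with values near the dim end here, which was 4.52 and 4.36 in R.17 and R.18, against 5.44 and 5.18 in R.13 and R.16 (difference -0.87 ± 0.18, adjusted p = 0.049). The median of the mitosis list, each against healthy animals, was 1.37 at days 22 and 24 and 1.04 at day 12, with R.17 and R.18 at opposite ends of the 4 animals. The count was 54 without R.17 and likewise without R.18, and 0 without R.13 and without R.16, and a side left with 1 array is assumed to vary like the other groups. The number of arrays limits what this comparison can show.

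The Siro.F arrays were also set against the NoRx.F arrays. Against healthy animals NoRx.F had 2036 genes higher (19.0%) and 1631 lower (15.2%), beside the 647 and 527 of Siro.F, and both comparisons use the same healthy animals. In NoRx.F 24 of 25 mitosis genes rose, 27 of 30 replication genes and 44 of 60 mitochondrial ribosomal proteins, with 0, 1 and 0 falls. In the direct comparison 413 of 10718 genes were higher in Siro.F (3.85%) and 554 lower (5.17%). Of 25 mitosis genes 0 were higher and 5 lower (median -0.72), of 30 replication genes 0 and 13 (-0.73), of 60 mitochondrial ribosomal proteins 0 and 23 (-0.42), of 52 respiratory chain genes 2 and 26 (-0.43), of 25 proteasome subunits 0 and 15 (-0.54) and of 31 interferon-induced genes 0 and 4 (-0.58). CCNB2 was 8.27, 7.03, 6.83 and 9.22 in Siro.F, against 11.15, 9.47, 10.82 and 9.65 in NoRx.F (difference -2.42 ± 0.57, adjusted p = 0.0032). MCM4, a subunit of the replicative helicase, was 9.39, 8.67, 8.11 and 9.47 in Siro.F, against 11.49, 10.02, 11.27 and 9.82 in NoRx.F (difference -1.72 ± 0.30, adjusted p = 5.4e-05). IFI27, an interferon-induced gene of mitochondria, was 9.0, 8.06, 9.35 and 9.81 in Siro.F, against 11.67, 11.08, 12.89 and 11.31 in NoRx.F (difference -2.62 ± 0.68, adjusted p = 0.0087). For these 3 genes every Siro.F array was below every NoRx.F array. Others among the 8 largest of this direction were MKI67, TYMS, CDKN3, a phosphatase of cyclin-dependent kinases (-2.25 ± 0.42, adjusted p = 0.00016), CENPW, a centromere protein (-1.76 ± 0.35, adjusted p = 0.00041), and FGFBP2, a gene of cytotoxic cells (-2.57 ± 0.77, adjusted p = 0.028).

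The difference was largest in the other direction for PTPN13. This gene, a tyrosine phosphatase, was 7.50, 8.07, 8.00 and 7.59 in Siro.F, against 4.63, 4.13, 3.83 and 5.39 in NoRx.F (difference 3.21 ± 0.41, adjusted p = 9.5e-08), and its difference from healthy animals was 0.01 in Siro.F and -3.19 in NoRx.F. SUN1, a protein of the nuclear envelope, was 10.52, 10.50, 10.90 and 10.29 in Siro.F, against 8.96, 7.23, 8.79 and 9.20 in NoRx.F (difference 1.95 ± 0.26, adjusted p = 1.5e-07). CISH was 9.41, 9.64, 9.52 and 10.00 in Siro.F, against 6.42, 6.28, 6.44 and 9.16 in NoRx.F (difference 2.44 ± 0.48, adjusted p = 0.00034). CD200 was 8.86, 8.68, 8.34 and 10.36 in Siro.F, against 7.45, 7.44, 6.82 and 7.84 in NoRx.F (difference 1.58 ± 0.34, adjusted p = 0.0014). The groups did not overlap for these 4 genes. AATK (2.34 ± 0.33, adjusted p = 1.1e-06), SOCS2 (2.34 ± 0.66, adjusted p = 0.018), TAGAP (1.92 ± 0.29, adjusted p = 3.4e-06), ZBTB20 (1.85 ± 0.37, adjusted p = 0.00057) and EGR2 (2.19 ± 0.71, adjusted p = 0.046) were, with PTPN13, SUN1 and CISH, the 8 largest. Of 19 naive and quiescence factors 4 were higher and 0 lower (median 0.47), including TCF7 (1.20 ± 0.22, adjusted p = 0.00016), and MYC was higher as well (1.40 ± 0.39, adjusted p = 0.015). LAG3 (-1.25 ± 0.43, adjusted p = 0.06) and ENTPD1 (-0.35 ± 0.34, adjusted p = 0.65) did not pass. A fit of these 8 arrays alone called 5 probe sets and a fit within batches 1 and 2 called 778, against 2045 with all groups. With 1 array left out the count was 1093 without R.16, 1224 without R.17, 1213 without R.50 and 1254 without R.52. NoRx.F has 3 arrays in batch 1 and 1 in batch 2 and was sampled at days 6 to 12, so drug and day cannot be told apart.

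**Figure D4:**
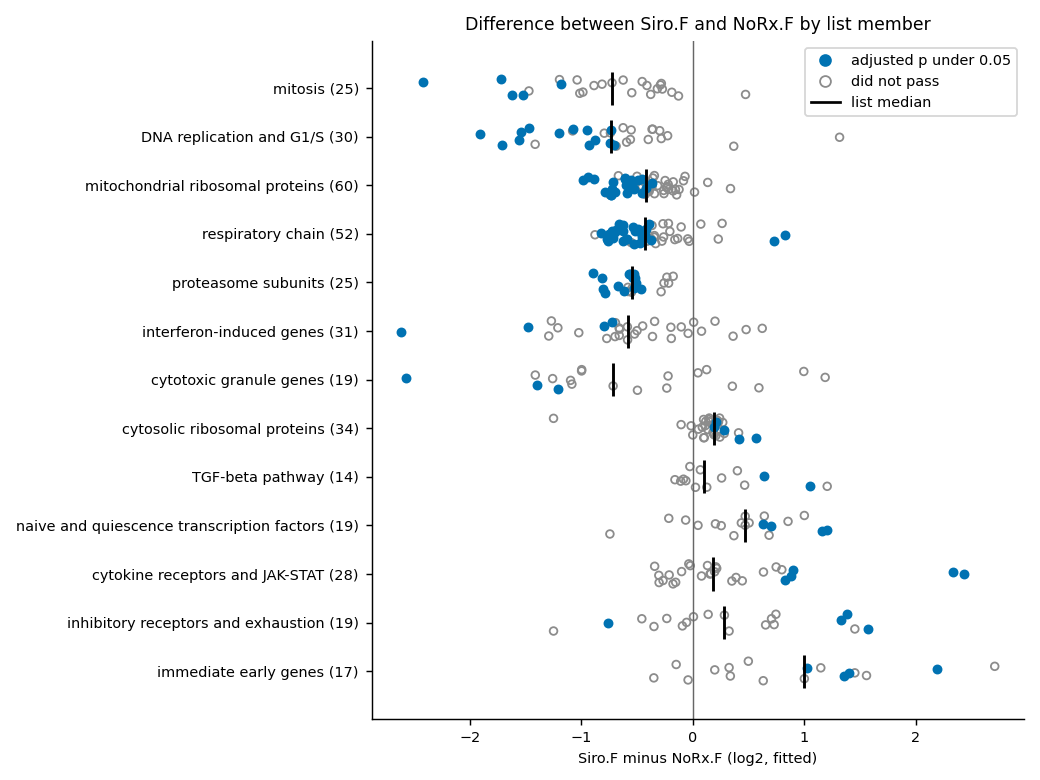
Fitted difference Siro.F minus NoRx.F (log2) of each member of 13 gene lists, with filled points for members past an adjusted p of 0.05, open points for the others and a bar at the list median. Members of the first 5 lists lie mostly left of 0, with 0 to 2 filled points to the right of it.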

How the data were processed

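The deposited table holds log2 values. The authors' tools were RMA and affy, per the submitters' processing notes, and their versions are not given in the sources used here. Per the labels' protocols, 70 to 85 ng of total RNA of sorted CD3 T cells was labelled by 3' in vitro transcription for Affymetrix arrays. RMA corrects background, quantile-normalizes arrays and summarises probes, so values near the floor are compressed and absolute RNA amounts are lost. Of 52865 probe sets, 99 controls were left out, and 31711 that exceeded the overall median value of 5.21 on 3 or more arrays were tested. Healthy medians of the called genes EGR2, TYMS, IL21 and ITGA2 lay below 5.21, so these rises started near the dim end. The number of arrays limits the precision.

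Each array was one sample of its group by the label, the 2 arrays of R.201 were averaged (101 arrays), and limma 3.58.1 (R 4.3.3, package data.table, version 1.17.8) fitted all 16 groups with 6 batches as a factor. Calls used a Benjamini-Hochberg adjusted p of 0.05 over the 31711 probe sets. A batch term over the healthy arrays had a p under 0.05 in 0.255% of probe sets, fewer than chance gives, and over 0.95 in 24.3%, more than chance gives. Whether the authors adjusted for batch is not stated in the sources used here. If they did, the SE and adjusted p given here may be too small, which was not tested. The submitted probe annotation gave 24969 probe sets 1 gene and 361 several, and 24629 of the single-gene ones matched RefSeq identifiers of the T2T-MMU8v2.0 assembly, with 0 symbols changed. Genes (10718) were represented by their brightest single-gene probe set. Genes of immunoglobulins, of T cell receptor chains, of MHC molecules and of the KIR family, whose probe sets can bind related genes, were not named. Named were the 12 largest rises and falls against healthy animals, up to 6 called and 3 other members of each list, a set of fixed genes, and the 8 largest of each direction in the other comparisons. TSC1 was named in addition. The members and lists were chosen with earlier results of these data known. The fit was tested on simulated data.

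The 3 Siro.F animals with a healthy array pair by the labels' animal numbers. Deviations of the arrays of one animal correlated at -0.118 in R.13, -0.0905 in R.18 and -0.0346 in R.16, ranking 36, 38 and 24 among the 45 healthy animals. Alternatives changed the batch term, the block, the groups and batches fitted, the filter, the prior, array weights, the normalization, the size of change called, the arrays and the probe sets of a gene.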

Additional observations from a re-analysis of the deposited data

Results flagged for a closer look

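In 11 of 212 genes examined, 1 of the 4 Siro.F arrays stood far from the other three, and chance flags about 1 in 20 such groups. The array of R.16 was the distant one 6 times, with DLGAP5 high at 7.23, KLRF1, an NK cell receptor gene, high at 9.97, MAPKAP1 low at 7.08, CD28 low at 6.32, BIK low at 7.64 and CD6, a T cell surface receptor gene, low at 6.26. The array of R.13 was the distant one for the calprotectin genes S100A8 (11.9) and S100A9 (11.3), both high. That of R.17 was low for CD8A (11.6) and PTTG1 (8.10), and that of R.18 was high for CXCL13 (8.62). The effect at days 22 and 24 differed from that at day 12 for CMYA5, with a difference of -0.87 between them in limma's test of the difference itself.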

How the results depend on the processing

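In Siro.F against healthy animals the count of probe sets called was 2824, and it was 1488 with batches 1 and 2 alone, 574 with a required difference of 1 on the log2 scale, 19 within batch 1 and 1334 within batch 2, fits with fewer arrays or a stricter rule by construction. It was 1016 to 2647 with 1 Siro.F array left out, lowest without R.18. With each animal as a fixed replicate block over 3 paired animals it was 0, in a fit with few residual degrees of freedom and no batch term that drops R.17. With the animal as a random block the count was 2963. Between the later and the earlier days the count of 3 became 7 with these groups alone, 0 with batches 1 and 2 alone, 23 with no filter, 0 with array weights, 5 after a further quantile normalization and 0 to 54 with 1 array left out. Against NoRx.F the count of 2045 became 5 with these groups alone, 778 with batches 1 and 2 alone, 1166 with array weights, 386 with a required difference of 1, and 1093 to 2809 with 1 array left out. The cause of these changes was otherwise not tested. The other alternatives run stayed within 1.5 times of each count. Of 148 named genes called, TSC1 not counted, 112 stayed called under the 11 alternatives that keep the 4 arrays and all batches, 67 without R.18 and 3 within batch 1 alone. Direction turned 3 times, for NTN4 (0.0653) and SLC16A1 (-0.26) within batch 1 and for IL1R2 (0.11) with the mean of all its probe sets. Within a group the replicates are separate animals. Animals recur between groups, and the main fit treats the 101 arrays of the 66 animals as independent. The 4 Siro.F arrays limit precision, and dim genes have compressed differences.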
